A study of Mus musculus with 6 samples.

Results

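Cadherins are the adhesion receptors of adherens junctions, and 10 of their genes were followed here in cardiosphere-derived cells of the mouse. The members were taken by gene symbol from the 54532 genes of the count table: the type I cadherins Cdh1, Cdh2, Cdh3, Cdh4 and Cdh15, the type II cadherins Cdh5, Cdh6, Cdh10 and Cdh11, and the glycosylphosphatidylinositol (GPI)-anchored Cdh13. They were chosen by name with their read counts in these libraries already known, so their values are given as a description and without p-values. The study compared 3 control with 3 induced libraries of 1 cell line, which was derived, by the methods of the study, from the epicardium of C57BL/6 mice (the tissue is labelled heart ventricle) and immortalised with a human telomerase (hTERT) transgene driven by a CMV promoter. Both groups carried the transgene and were at passage 30. The induced cells had received 10 µM of 5-azacytidine (5-aza), an inhibitor of DNA methylation, for 3 days, and were then cultured in IMDM with 2% serum over 4 weeks. The methods of the study give another medium and a shorter culture, and the parallel culture of the control cells is not described, so that drug, serum and time in culture cannot be told apart.

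Classical cadherins hold neighbouring cells together in a calcium-dependent way, mostly by binding the same cadherin on the next cell. Their cytoplasmic tails bind beta-catenin or plakoglobin and p120-catenin, and alpha-catenin links this complex to actin. In the heart, N-cadherin (Cdh2) joins cardiomyocytes at the intercalated disc, cadherin-11 is typical of mesenchymal cells and fibroblasts, and VE-cadherin (Cdh5) is restricted to endothelium. T-cadherin (Cdh13) has no cytoplasmic tail and is held in the membrane by a GPI anchor. Loss of E-cadherin (Cdh1) with gain of N-cadherin is the best known cadherin change of the epithelial-to-mesenchymal transition (EMT).

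Each library held 19041133 to 19823369 gene-assigned reads, so that a count of 0 allowed a level of up to 0.151 to 0.158 CPM (counts scaled to a library total of 1e+06), a limit that covers counting error only. The labels give 3 separate samples per group but do not say whether these were separate cultures, and the p-values below measure the spread between these samples. The mesenchymal and epicardial identity was checked with marker lists. Summed fibroblast markers lay between 18724 and 19767 CPM in control and between 22794 and 24055 CPM in induced libraries, and summed mesothelial markers between 795 and 823 and between 2953 and 3060 CPM. Within these lists 5 of 7 fibroblast and 6 of 8 mesothelial genes were called higher and 2 of each lower, namely Pdgfra (log2 fold change -0.73), Col1a1 (-0.36), Krt19 (-1.24) and the epicardial factor Tbx18 (63.7 ± 4.9 to 50.7 ± 4.6 CPM, -0.33). Over all tested genes 32.6% were called higher and 32.2% lower. The cardiomyocyte list summed to 13.0 to 16.1 CPM in control and 59.1 to 62.7 CPM in induced libraries, nearly all of it Tnnt2 (13.1 ± 1.62 to 58.2 ± 1.92 CPM). Of the other 7 genes of that list Tnni3 was tested and not called, and the sarcomere genes Myh6 and Myl2 had at most 1 read in any library. Ryr2, with too few reads to be tested, had 0, 0 and 1 reads in the control and 9, 10 and 10 in the induced libraries. Actn2 had 8 reads in induced library 2 and 0 elsewhere, and Myh7 and Nppa had at most 3 reads in any library. The part of these marker changes in the cadherin results was not tested. The leukocyte list stayed at or below 0.159 CPM in every library, with 5 of 6 genes at 0 reads. In bulk RNA, fewer cells of a type and less RNA per cell cannot be told apart.

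Cdh2 was the most abundant of the 10 members in both groups, and Cdh13 and Cdh11 took a larger share in the induced cells. Of the 10 members, 6 had enough reads for the test across all genes. Cdh1, Cdh3, Cdh11 and Cdh13 were called higher in the induced cells and Cdh2 and Cdh6 lower, at an adjusted p of 0.05 in edgeR's quasi-likelihood test. Of all 14246 genes tested, 64.8% were called, 32.6% as higher and 32.2% as lower. The control and induced libraries did not overlap for any of these 6 members, as was true of 68.6% of all genes tested (34.1% higher and 34.5% lower in the induced cells). Nothing is read from these counts, because the members were chosen on this contrast and Cdh6 passed the filter on low counts only through its control libraries. Cdh4, Cdh5, Cdh10 and Cdh15 had too few reads to be tested.

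**Figure D1:**
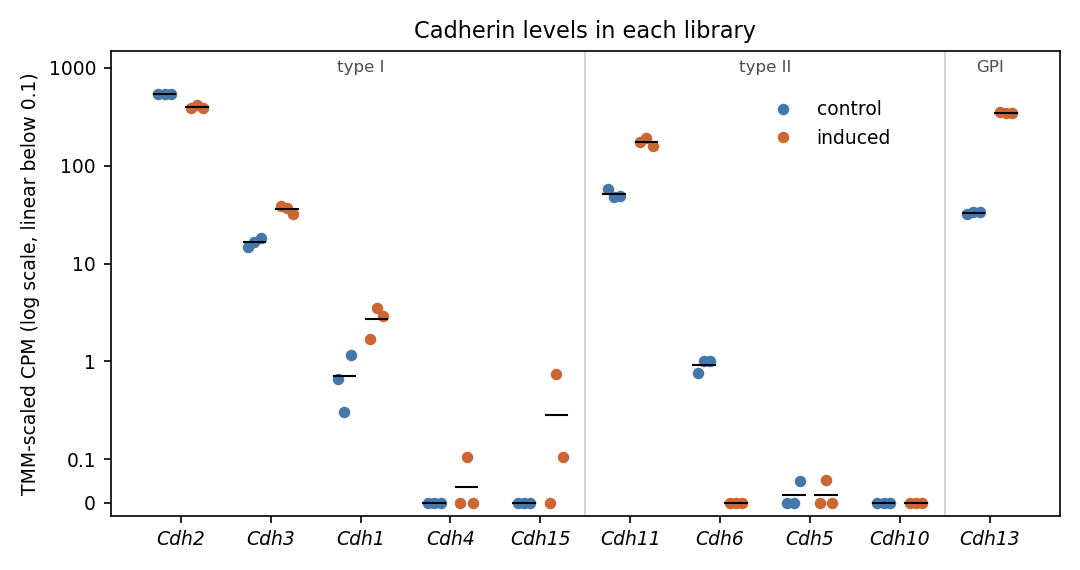
TMM-scaled CPM of each cadherin gene (vertical axis, log scale and linear below 0.1) in the 3 control and the 3 induced libraries, with a point per library and a black bar at the group mean, ordered by cadherin class. Cdh13 sits between 32.1 and 34.0 CPM in control and between 345 and 352 CPM in induced libraries, and Cdh6 has no read in any induced library. Cdh4, Cdh5 and Cdh10 lie at or near 0, as does Cdh15 apart from 0.736 CPM in induced library 2.

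Among the type I cadherins, Cdh2 was the most abundant in both groups. The control libraries had 10794, 10678 and 10873 reads of Cdh2, and the induced libraries had 7400, 7997 and 7407. All 3 induced libraries lay below all 3 controls. The mean fell from 545 ± 1.5 to 401 ± 17.4 CPM (SD, n = 3 each), which was 1.36-fold lower (log2 fold change -0.44, SE 0.04). Cdh2 had the smallest change of the 6 members tested. It also had the tightest control values of these 6, with a coefficient of variation of 0.276% in CPM against 4.35% in the induced libraries. Cdh2 lies on the minus strand of chromosome 18, from 16588877 to 16809246 (mm10).

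P-cadherin (Cdh3), found in basal epithelia, had 292, 325 and 368 reads in the control and 733, 703 and 618 reads in the induced libraries. The lowest induced library was above the highest control. Its mean level rose from 16.6 ± 1.82 to 36.1 ± 3.37 CPM (SD, n = 3 each), a 2.17-fold difference (log2 fold change 1.12, SE 0.09). E-cadherin (Cdh1), the main cadherin of epithelia, had 13, 6 and 23 reads in the control and 32, 67 and 56 reads in the induced libraries. These groups did not overlap either, but the counts were low and spread widely. Its mean rose from 0.706 ± 0.425 to 2.72 ± 0.931 CPM (log2 fold change 1.93, SE 0.37). The log2 fold change ranged from 0.46 to 2.48 over the 15 alternative settings, and the value of 0.46 came from log2(FPKM + 1), where the pseudocount exceeds the level of this gene.

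Cdh1 thus moved in the same direction as Cdh3, its neighbour in the genome. On the plus strand of chromosome 8, Cdh3 runs from 106510891 to 106557297 and Cdh1 from 106603351 to 106670246 (mm10), with 46053 bases between them. Despite the rise, Cdh2 had 131, 67.7 and 75.0 times the FPKM (read counts scaled by gene length and library total) of Cdh1 in the induced libraries, against 471, 1009 and 268 times in the controls. The epithelial marker list summed to 43.4 to 45.3 CPM in control and 44.8 to 55.2 CPM in induced libraries. Its members moved in both directions. Of its 9 genes 5 were tested, with 3 called higher and 2 lower, against 32.6% and 32.2% of all tested genes. The keratins Krt8 and Krt18 rose from 0.0841 to 12.5 and from 0.0672 to 18 CPM, and Cldn3 from 0.135 to 0.913 CPM. Another keratin, Krt19, fell from 30.3 to 12.8 CPM, and Esrp2 from 13.3 to 7.31 CPM. Epcam, an epithelial surface protein, had 1 read in each group, and Cldn4 was at 0. The part of these genes in the Cdh1 and Cdh3 result was not tested.

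The other type I members were near the limit of detection. R-cadherin (Cdh4), known from retina and other neural tissue, had 0 reads in all control libraries and 0, 2 and 0 in the induced ones. M-cadherin (Cdh15), a cadherin of satellite cells and myoblasts of skeletal muscle, had no read in any control library and 0, 14 and 2 reads in induced libraries 1, 2 and 3. Summed over the group this was at least 5.56-fold higher than the floor of 3 counts, but 14 of the 16 reads came from induced library 2. Without that library 2 reads were left, which is under the floor. The skeletal myogenic list followed the same library: its 7 genes had 0 reads in each control and 5, 50 and 3 reads in the induced libraries. Myod1, a master regulator of myogenesis, had 1, 14 and 1 reads there, Myog had 3, 19 and 0, the fusion factor Mymk had 1, 11 and 0, and the satellite cell factor Pax7 had 0, 6 and 0. Whether these reads and those of Cdh15 came from the same cells was not tested.

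**Figure D2:**
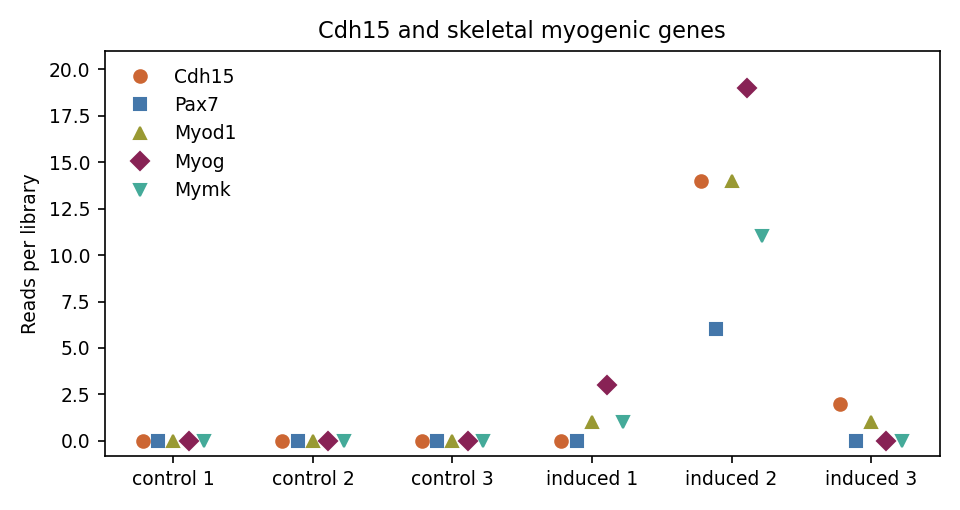
Reads (vertical axis) of Cdh15 and 4 skeletal myogenic genes in each of the 6 libraries (horizontal axis), with a symbol per gene. All 5 genes are at 0 in the 3 control libraries, and induced library 2 holds 14 reads of Cdh15 beside 19 of Myog, whereas induced libraries 1 and 3 hold between 0 and 3 reads of each gene.

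Among the type II cadherins, Cdh11 was the most abundant. It had 1128, 946 and 976 reads in the control and 3259, 3678 and 3066 reads in the induced libraries. Every induced library held more than 2 times the reads of every control. The mean level rose from 51.4 ± 4.98 to 176 ± 16.5 CPM (SD, n = 3 each), 3.42-fold (log2 fold change 1.77, SE 0.07), and the log2 fold change stayed between 1.62 and 1.86 under all 15 alternatives. Cdh11 lies on the minus strand of chromosome 8, from 102632095 to 102785642.

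Cdh6 (K-cadherin), known from developing kidney and neural crest, went the other way. It had 15, 20 and 20 reads in the control libraries and 0 in each induced library. The 55 control reads against none gave a level at least 17.6-fold lower, counted against a floor of 3 reads over the induced group. The control level was low, at 0.927 ± 0.145 CPM (SD, n = 3). Neural and glial markers were also lower in the induced libraries, with a summed level of 0.316 to 0.585 CPM against 2.04 to 2.74 CPM in the controls, 3 of 6 genes at 0 and 2 called lower. Their part in the Cdh6 result was not tested. Cdh6 lies on the minus strand of chromosome 15, from 13028701 to 13173675. Of the 561 tested genes of that chromosome, 288 were called lower and 115 higher, against 32.2% and 32.6% of all tested genes. Their median log2 fold change was -0.24, against -0.007 for all genes. The fitted log2 fold change of Cdh6, which rests on 0 induced reads, was -7.18, and -6.94 after that median was subtracted.

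The promoter of Cdh6, the member that went to 0 reads, is shown with its CG dinucleotides in capitals, the sites whose methylation 5-azacytidine inhibits. The 250 bases before its start in RefSeq, on the minus strand (chr15:13173676-13173925, GRCm38.p6), are
Cdh6: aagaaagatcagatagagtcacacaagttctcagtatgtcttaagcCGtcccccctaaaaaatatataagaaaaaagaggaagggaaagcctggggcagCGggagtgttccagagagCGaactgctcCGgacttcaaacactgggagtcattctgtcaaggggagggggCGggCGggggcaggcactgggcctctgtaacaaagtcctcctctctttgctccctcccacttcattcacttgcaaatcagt
They hold 6 CG dinucleotides, which is the median of 32851 RefSeq promoters of this length, with an observed over expected ratio of 0.367 and a GC content of 51.2%. The E-box letters CACCTG or its reverse complement CAGGTG, the motif bound by SNAIL and ZEB factors, do not occur in this window, and 17.2% of all promoters hold them. DNA methylation itself was not measured here. Among the other members, promoter sequences of Cdh10 and Cdh15 were matched, with 2 and 5 CG dinucleotides, and both windows lay within the gene as it is annotated in the count table. No promoter was matched for 7 members, among them Cdh1, Cdh2, Cdh3, Cdh11 and Cdh13, so that Cdh6 could not be compared with these.

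The remaining type II members were nearly silent. VE-cadherin (Cdh5) had 1 read in control library 3, 1 read in induced library 2 and none elsewhere. The endothelial list, low but above Cdh5, summed to 1.75 to 2.34 CPM in control and 1.58 to 3.2 CPM in induced libraries, with Vwf as its top gene and Tie1 and Cldn5 at 0 in every library. Its members differed in direction: Tek went from 3, 2 and 2 reads to 9, 10 and 13, Esam from 3, 4 and 0 to 7, 8 and 17, and Erg from 6, 5 and 4 to 0 in each. Cdh10, a cadherin of the brain, had no read in any of the 6 libraries.

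The GPI-anchored Cdh13 showed the highest rise of the 6 members tested. It had 633, 657 and 679 reads in the control and 6631, 6632 and 6581 reads in the induced libraries. The induced libraries were almost equal to each other, with a coefficient of variation of 1.08% in CPM. The mean rose from 33.2 ± 1.0 to 349 ± 3.75 CPM (SD, n = 3 each), 10.5-fold (log2 fold change 3.39, SE 0.05), and the log2 fold change stayed between 3.03 and 3.42 under the alternatives. T-cadherin is a receptor for adiponectin. The gene of that ligand, Adipoq, had 5, 1 and 1 reads in the control libraries and 0 in each induced library, too few to be tested. Cdh13 lies on the plus strand of chromosome 8, from 118283733 to 119324921, and with Cdh1, Cdh3, Cdh5, Cdh11 and Cdh15 it is 1 of 6 members on that chromosome. The 779 tested genes of chromosome 8 had a median log2 fold change of -0.02.

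Levels of different genes were compared in FPKM, which corrects for gene length. In control cells the order was Cdh2 (67.0 FPKM), Cdh11 (5.72), Cdh3 (3.75), Cdh13 (2.93), Cdh1 (0.153) and Cdh6 (0.102), and only the ranges of Cdh1 and Cdh6 overlapped among these neighbours. In induced cells the order became Cdh2 (49.6 FPKM), Cdh13 (31.0), Cdh11 (19.7), Cdh3 (8.22) and Cdh1 (0.593), with no overlap between neighbours. Cdh13 moved from the fourth place to the second. Its distance to Cdh2 shrank accordingly, with a ratio of Cdh2 to Cdh13 of 23.7, 22.6 and 22.3 in the controls and 1.55, 1.68 and 1.57 in the induced libraries.

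The summed FPKM of the 10 members was 79.9, 78.9 and 80.0 in the control libraries and 109, 114 and 105 in the induced libraries. Cdh2 made up 84.1% ± 0.389 of this sum in control and 45.4% ± 0.553 in induced cells (SD, n = 3 each). The share of Cdh13 went from 3.68% ± 0.119 to 28.4% ± 1.11, and that of Cdh11 from 7.18% ± 0.669 to 18% ± 0.908. Cdh3 took 4.71% ± 0.517 and 7.53% ± 0.577. The summed level of these 10 members was thus higher while its largest component was lower. Within it Cdh2 went from 67.0 to 49.6 FPKM, Cdh11 from 5.72 to 19.7 and Cdh3 from 3.75 to 8.22. Cdh13, which has no cytoplasmic tail, went from 2.93 to 31.0 FPKM. Because the members were chosen on this contrast, their sum does not stand for cadherins as a whole.

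**Figure D3:**
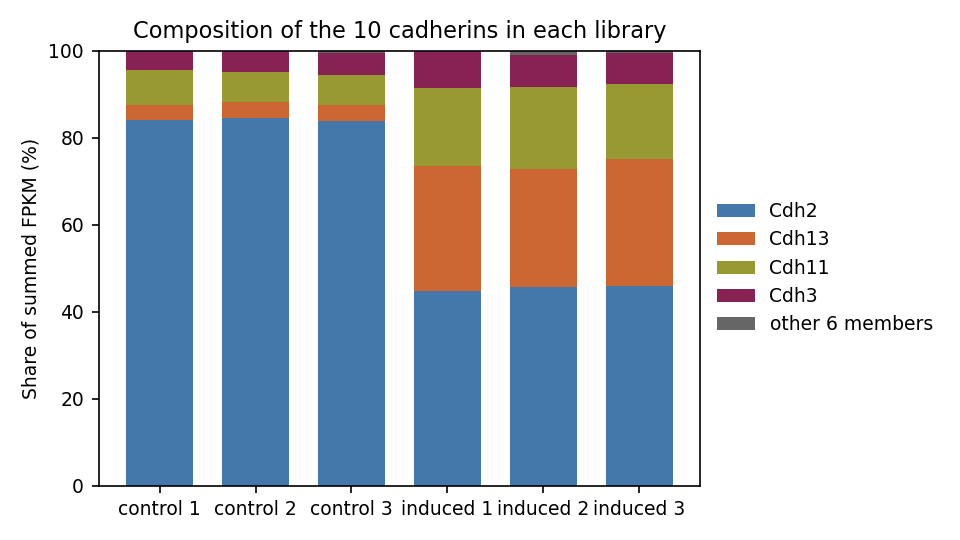
Share (%) of each cadherin in the summed FPKM of the 10 members (vertical axis), as a stacked bar for each of the 6 libraries. Cdh2 fills 84.1% of the control bars and 45.4% of the induced bars on average, and Cdh13 fills 3.68% and 28.4%.

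The sequence that reads of these genes could share with other genes made up a small part of each member. No exon base of a member overlapped an exon of another gene, and no stretch of 50 bases occurred in the transcripts of more than 1 member. Stretches shared with any other gene made up 2.07% of Cdh11, 0.401% of Cdh13, 0.201% of Cdh6 and none of Cdh1, Cdh2 or Cdh3. Those of Cdh6 recurred in 499 other genes, those of Cdh13 in 120 and those of Cdh11 in 8. The part of such reads in the low counts of Cdh6 was not tested.

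The other 9 classical cadherins had few reads. Cdh24, a type II cadherin, passed the filter as the only gene of the 9 and fell from 3.30 ± 0.389 to 2.07 ± 0.459 CPM (log2 fold change -0.67, SE 0.22, adjusted p = 0.0127), a call that was lost without induced library 3 (adjusted p = 0.0721). Cdh19, a cadherin of Schwann cell precursors, had 0 reads in the controls and 5, 4 and 7 in the induced libraries, at least 5.56-fold higher against the floor. Cdh18 had 10 reads over the control and 1 over the induced group, and Cdh22 had 6, 2 and 14 reads in the control and 4, 1 and 1 in the induced libraries, which overlap, with 14 of its 22 control reads in control library 3. Cdh7, Cdh8, Cdh9, Cdh12 and Cdh20 had no read in any library.

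In the wider cadherin superfamily, 8 of 21 genes were called higher and 2 lower, with 11 tested and a median log2 fold change of 0.87. The share over all tested genes, 32.6% higher and 32.2% lower, stands beside this count and those of the following lists. Celsr1, a planar cell polarity receptor, rose from 0.774 ± 0.242 to 6.01 ± 0.312 CPM (log2 fold change 2.94, adjusted p = 1.61e-09), and Cdhr1 rose from 4.02 ± 0.778 to 14.1 ± 1.28 CPM. Fat4 and Dchs1, which bind each other across cells in the Fat-Dachsous pathway, both fell, Fat4 from 32.5 ± 1.4 to 16.2 ± 1.28 CPM and Dchs1 from 70.2 ± 4.93 to 37.3 ± 3.17 CPM (log2 fold changes -1.0 and -0.91). Their relatives Fat1 and Dchs2 were called higher, Fat1 from 463 ± 7.69 to 661 ± 46.2 CPM and Dchs2 from 0.538 ± 0.186 to 1.18 ± 0.16 CPM. Clstn2 and Fat3 were at 0 in all libraries.

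Of the 17 catenins and actin links that bind the cadherin tail or sit behind it, 8 were called higher, 2 lower and 4 tested genes were not called (median log2 fold change 0.23). Of all tested genes, 64.8% were called. Beta-catenin (Ctnnb1) went from 499 ± 8.24 CPM in the controls to 470 ± 18 CPM after induction (adjusted p = 0.0962), and p120-catenin (Ctnnd1) had 41.2 ± 1.83 and 39.8 ± 3.29 CPM (adjusted p = 0.548). Relatives of both were called higher. Plakoglobin (Jup), which can take the place of beta-catenin, rose from 65.3 ± 2.6 to 137 ± 2.86 CPM (log2 fold change 1.07, adjusted p = 3.06e-12). Arvcf, of the p120 family, rose from 52.9 ± 2.12 to 137 ± 6.19 CPM (log2 fold change 1.37, adjusted p = 2.2e-13). Plekha7, which joins p120-catenin to microtubules, and the alpha-catenin relative Ctnnal1 rose by 1.04 and 0.91 on the log2 scale. Alpha-catenin (Ctnna1) was higher by 0.16, and Lima1 and Actn1 were lower, by 0.60 and 0.18 on that scale.

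Desmosomes use their own cadherins and share plakoglobin with adherens junctions. Of 14 desmosomal genes, 5 were tested and 4 were called higher, all of them plaque proteins: Jup, Pkp2, Pkp3 and Dsp. Of all tested genes, 32.6% were called higher. Pkp2, the plakophilin of the heart, rose from 3.86 ± 0.326 to 19.5 ± 0.464 CPM (log2 fold change 2.33, adjusted p = 1.74e-12). Pkp3 had 2 reads over the controls and 102 over the induced libraries, a ratio of 53.2 (95% counting interval 14.3 to 445). Both control reads were in control library 3, and the fitted log2 fold change of 5.48 became 8.12 without that library, where the controls had no read. Desmoplakin (Dsp), at 0.303 ± 0.134 CPM in the controls, rose by 1.91 on the log2 scale (SE 0.45, adjusted p = 0.00113). Of the desmosomal cadherins, Dsg2 was not called (0.707 ± 0.147 and 0.598 ± 0.0851 CPM, adjusted p = 0.586), Dsc2 had 13 reads over the control and 0 over the induced libraries, and Dsg1a, Dsg1b, Dsg1c, Dsg4 and Dsc1 were at 0.

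Among 14 transcription factors known to act on cadherin genes or on EMT, 7 were called lower and 2 higher (11 tested, median log2 fold change -0.28). The mesenchymal factor Prrx1 fell from 486 ± 2.74 to 131 ± 7.39 CPM (log2 fold change -1.89, adjusted p = 5.57e-16). The E-cadherin repressors Snai1 and Tcf3 fell from 61.9 ± 1.5 to 32.8 ± 3.32 and from 166 ± 5.23 to 77.3 ± 5.08 CPM (adjusted p = 6.99e-10 and 5.13e-12), and Zeb2, Zeb1, Twist1 and Snai2 were lower by 0.50, 0.15, 0.28 and 0.37 on the log2 scale. Snai2 was called although its groups overlapped. Klf4, an activator of Cdh1, rose from 30.7 ± 0.82 to 52.7 ± 1.72 CPM. Grhl2, an epithelial factor that also acts on Cdh1, had no read in the controls and 45, 39 and 44 reads in the induced libraries, at least 44.5-fold higher. Ovol2 was at 0 in all libraries. The part of these factors in the results of Cdh1 and the other members was not tested.

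Of the 7 partners that bind cadherins outside the junction, 3 were tested and all 3 were called higher, as were 32.6% of all tested genes. Cdon and Boc, immunoglobulin-family receptors that associate with N-cadherin and M-cadherin in myoblasts, rose from 33.1 ± 2.07 to 73.5 ± 3.35 and from 51.3 ± 3.49 to 114 ± 1.89 CPM (log2 fold change 1.15 for each, adjusted p = 7.85e-12 and 4.07e-12). Fgfr1, which N-cadherin can bind, was higher by 0.15 on the log2 scale. Klrg1, a lymphocyte receptor for E-cadherin, was at 0.

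Proteins that cleave cadherins or control their turnover formed a list with a median near 0. All 13 were tested, 4 were called higher and 4 lower, and their median log2 fold change was -0.01. The receptor phosphatase Ptprk rose from 24.7 ± 1.04 to 51.7 ± 2.19 CPM (log2 fold change 1.07, adjusted p = 4.43e-11). The other 12 lay between -0.32 and 0.31 on the log2 scale, among them Numb and Ncstn, called higher by 0.31 and 0.20, and the sheddase Adam10, called lower by 0.15.

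**Figure D4:**
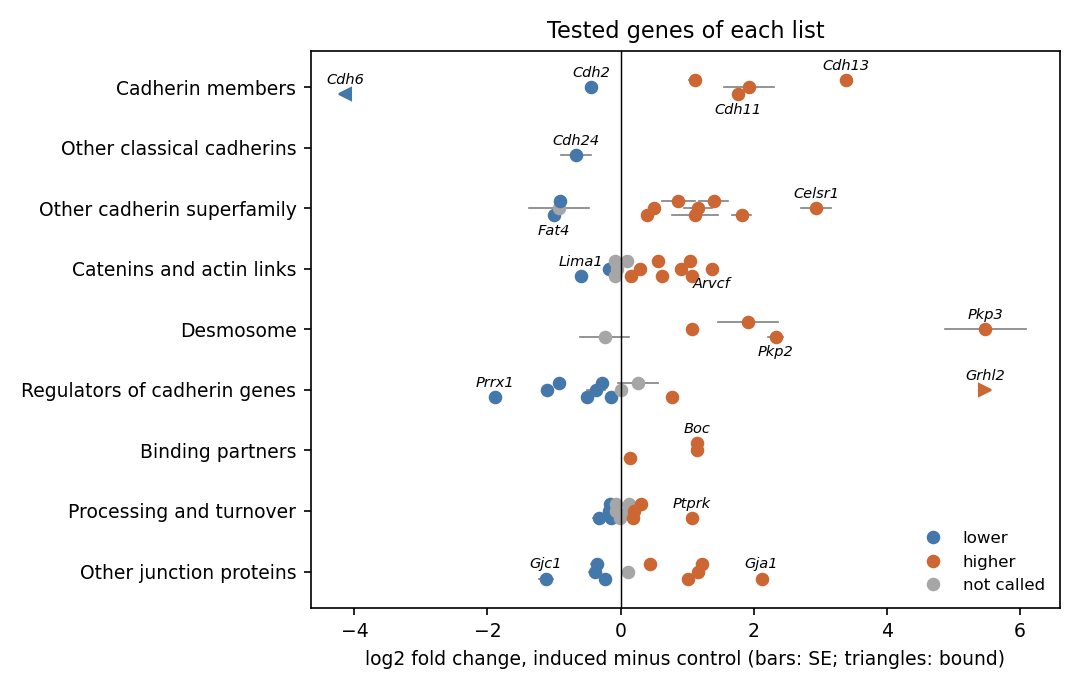
Log2 fold change of the induced against the control cells (horizontal axis) for the tested genes of each list (vertical axis), with SE as bars, blue for genes called lower, orange for higher and grey for not called. Triangles mark Cdh6 and Grhl2, which had no read in 1 group and are placed at the bound from 3 counts, and the members span from that bound of Cdh6 to 3.39 for Cdh13.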

How the data were processed

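RNA libraries of the 6 samples were prepared by the authors with a NEBNext Ultra kit and sequenced. Per the labels, reads were aligned to mm10 with HISAT2 2.0.5 and counted with featureCounts 1.5.0-p3; strand setting and annotation release are not given in the sources used here. The authors deposited raw read counts per gene and, beside them, FPKM values, which are counts scaled by gene length and library total. The authors' fold changes, p-values and enrichment tables hold their own comparison and were not used.

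The 10 members and all gene lists were chosen with earlier results of these data known. Counts were filtered with filterByExpr (minimum count 10, minimum total 15), scaled by TMM and tested with edgeR 4.0.16 in R 4.3.3 by the two-sided quasi-likelihood test, with Benjamini-Hochberg adjustment over all 14246 genes and a threshold of 0.05. The filter kept at least 99.9% of the reads. The code was tested on simulated data. CPM in the text are TMM-scaled, ± is the SD, and folds against a group at 0 use a floor of 3 counts over the group. Counting intervals are exact (95%). Named were all members and other classical cadherins and, in each further list, up to 4 tested genes with the smallest p and the genes at 0; other names (such as Grhl2, Ctnnb1, Ctnnd1, Krt8, Krt18, Dsg2 and the smaller changes) were added after their values were seen. Alternatives were DESeq2 1.42.0, limma 3.58.1 on FPKM with pseudocounts of 1 and 0.1, library totals, other filters, a threshold of 0.01, a replicate block and each library left out. Gene positions are those of the deposited table, the exon overlaps used GENCODE M21, and promoters came from RefSeq. Protein sequences were not used here. Some genes of the lists are not reported here by name.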

Additional observations from a re-analysis of the deposited data

How the results depend on the processing

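Cdh1, Cdh2, Cdh3, Cdh11 and Cdh13 kept their direction and were called under all 15 alternatives, and Cdh6 under the 14 that gave it a value. These alternatives use the same libraries, and the threshold of 0.01 reuses the main fit. Since the members were chosen on this contrast, their staying called is a description and no support for the calls. The stricter filter removed Cdh6 and left 1 member called lower. Under log2(FPKM + 1) the log2 fold changes of Cdh1 and Cdh6 were 0.46 and -0.14. With no filter Cdh15 was also called higher, making 5. The count of other classical cadherins called was 1, and it was 2 with no filter, 0 at an adjusted p of 0.01, and 0 to 1 over the fits that left out a library; it was 0 without induced replicate 3. The induced share of Cdh2 was 41.5% in summed CPM instead of 45.4% in FPKM, since CPM does not correct for length. Dsp was not called under log2(FPKM + 1) (adjusted p = 0.0584). No result reversed. Genes called over all tested numbered 9225, and 8593 with DESeq2, 7783 at 0.01, 9765 with no filter and 8514 to 9348 with a library left out. The 9348 came without induced library 2, which differed most from the others of its group. The chi-square of read counts per degree of freedom was 8.91 against induced library 1 and 8.04 against induced library 3. Between induced libraries 1 and 3 it was 4.68. Library totals moved the median of all genes to -0.04, and Cdh2 was at -0.50 after the median of its chromosome was subtracted.

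Samples with the same replicate number did not deviate together (correlations of -0.002, -0.015 and 0.027), so the numbers were not taken as pairs, and control 1 correlated best with induced 2 (0.053). Adding the replicate number as a block gave 9063 called genes, and all 6 members stayed called, which is likewise a description. Depth limits Cdh1, Cdh6 and the 4 members not tested.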

Other observations

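Other junction proteins were measured beside the cadherins. Of 12 genes of gap junctions, tight junctions and nectin contacts, 10 were tested, 5 were called higher and 4 lower, with a median log2 fold change of 0.29. Over all tested genes 32.6% were called higher and 32.2% lower. Connexin 43 (Gja1), the main gap junction protein of the ventricle, had 79.7, 76.4 and 74.2 CPM in the control and 329, 351 and 324 CPM in the induced libraries (log2 fold change 2.12, SE 0.05, adjusted p = 2.3e-16). Connexin 45 (Gjc1) fell from 24.7 ± 1.21 to 11.4 ± 1.99 CPM. The junctional adhesion molecules F11r and Jam2 had log2 fold changes of 1.22 and 1.17, whereas Jam3, Nectin1 and Nectin2 were lower.

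Induced library 2, which held 14 of the 16 reads of Cdh15, also held 8 genes with at least 10 reads there and at most 1 read in every other library, a search made after its values were seen. All 8 were protein coding: Myl1 (55 reads), Myh3 (25), Myod1 (14), Tmem182 (13), Gabrd (12), Chrnd (11), Chrng (11) and Mymk (11). Myl1 and Myh3 encode skeletal muscle myosin chains, and Chrnd and Chrng encode subunits of the muscle acetylcholine receptor. The other 5 libraries had 0 to 1 such gene each, none of them protein coding.

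Of the 10 tested genes within 500 kb of Cdh13, 6 were called higher and 1 lower (median log2 fold change 0.47). Over all tested genes 64.8% were called, 32.6% as higher and 32.2% as lower. Wfdc1, the highest of them, had a log2 fold change of 3.73, beside 3.39 for Cdh13; it was named after its value was seen. Of the 20 tested genes around Cdh3 that are not members, 4 were called higher and 9 lower, and of the 20 around Cdh1, 4 and 8. Whether any member and its neighbours changed together was not tested.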
